A study of Glycine max with 4 samples.

Results

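The soybean lipoxygenase gene models of the tandem clusters on chromosomes 7 and 8 were followed across 2 lines and 2 water regimes. They were taken by identifier from a list of 9, running from Glyma07g00890 to Glyma07g00920 and from Glyma08g20190 to Glyma08g20250. The table of 54175 gene models held 8 of the 9, and Glyma07g00890 was not analysed here. The chromosome of each member was read from its identifier, and coordinates were not used here. That the members are lipoxygenases comes from the list, since the table holds identifiers without names or descriptions.

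Leaf RNA of soybean (Glycine max) was sequenced in 4 groups of 3 libraries, formed by crossing the lines Pana and PI 567690 with control and drought. By its label Pana is Drought Susceptible, whereas PI 567690 is labelled Drought Tolerant, and the study set these lines side by side because their canopies wilt differently. All plants grew in pots of soil and sand. Water stress was imposed on the drought plants for 15 days at the V5 vegetative stage, leaves were taken at the R2 flowering stage, and the controls carry the label of a control condition. The design text speaks of biological replicates. The labels do not tie a library to a plant, and the spread behind each p-value is that among the libraries, which may be technical in part. Leaf markers were not checked, because no identifier was paired with a gene name.

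Lipoxygenases add oxygen to polyunsaturated fatty acids such as linoleic and linolenic acid. The hydroperoxides they make feed several branches of oxylipin metabolism, among them the synthesis of jasmonate, a hormone of wounding and stress, and of the volatile aldehydes released by damaged leaves. Soybean has seed lipoxygenases and vegetative ones. Some of the vegetative enzymes accumulate in leaves as storage-type proteins, and leaf lipoxygenase transcripts of soybean are known to respond to water deficit, wounding and jasmonate. Which fatty acid product each member makes is not given in the sources used here.

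Values were taken as FPKM, since their unit is not named. FPKM gives reads per gene model relative to its length and to the size of the library, so levels of different members can be set side by side.

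Some libraries stood apart before any result was drawn. By the FPKM worth of 1 read, depth relative to Pana drought library 3 was 48.3% in PI 567690 drought library 1, 50.3% in PI 567690 control library 1, 50.5% in Pana control library 1 and 61.1% to 99.6% in the others. The reads recovered from part of the gene models summed to another order, from 8569474 in Pana control library 1 to 31382253 in Pana drought library 1. Pana control library 1 listed 15657 gene models at 0, against 9535 to 12093 in the others. Pana drought library 3 was closer to PI 567690 control library 1 (r = 0.938 across tested genes) than to either library of its own group (highest r 0.863). Pana drought libraries 1 and 2 were also closest to the other line, to PI 567690 drought library 1 (r = 0.92 and 0.936, highest within their group 0.901). PI 567690 drought library 1 was in turn closest to Pana drought library 2 (r = 0.936, highest within its group 0.925). PI 567690 drought libraries 2 and 3 had r = 0.992 across tested genes, next to 0.987 for PI 567690 control libraries 2 and 3. Reads of PI 567690 drought libraries 2 and 3 were compared by squared difference relative to sampling noise, in 4 ranges of read number. The median ratio was 1.09, 1.18 and 1.88 in the lower 3 ranges, and 30.8 in the highest, with 414 gene models. Other replicate pairs ran from 1.55 to 14066, and PI 567690 control libraries 2 and 3 gave 1.55, 2.39, 6.23 and 173. In each range these PI 567690 drought libraries were thus the closest replicate pair. Whether they are technical repeats was not tested. They were kept as separate replicates, and results with them averaged are given too. In bulk leaf RNA, fewer cells of a type and less RNA per cell cannot be told apart.

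Expression of the clusters was concentrated in 2 gene models. Glyma07g00900 and Glyma08g20230 together made up 96.7% to 99.7% of the summed FPKM of the 8 members in each of the 12 libraries. Glyma08g20250 came next in PI 567690 under drought, at up to 3.28 FPKM. The other 5 members stayed below 0.5 FPKM except in 1 library. Only 3 members, Glyma07g00900, Glyma08g20230 and Glyma08g20250, reached 1 FPKM in at least 3 libraries and were tested. Glyma08g20250 did so in PI 567690 drought alone, so its higher level there was part of how it entered the test.

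Glyma07g00900, the abundant member on chromosome 7, was high in every group but 1. In Pana control it stood at 47.5, 188 and 424 FPKM in libraries 1, 2 and 3. In Pana drought it stood at 74.3, 175 and 105 FPKM, inside the range of the Pana controls. In PI 567690 control it stood at 21.6, 16.1 and 20.9 FPKM, below every other library. In PI 567690 drought it reached 95.6, 382 and 382 FPKM, and the lowest of these was 4.43 times the highest PI 567690 control. Group means were 286 ± 165 FPKM in PI 567690 drought, 219.7 ± 190.2 in Pana control, 118 ± 51.7 in Pana drought and 19.5 ± 2.95 in PI 567690 control (SD, n = 3 each). The first 3 groups in that order overlapped, and PI 567690 control lay apart. Among all 54175 gene models listed by level, Glyma07g00900 was number 182 in PI 567690 drought libraries 2 and 3 and number 1049 in library 1, against 4721 to 6394 in the PI 567690 controls.

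Glyma08g20230, the abundant member on chromosome 8, had the widest contrast between water regimes in PI 567690 among the 3 tested. Its PI 567690 controls held 0.922, 0.884 and 0.341 FPKM, which correspond to 49, 93 and 22 recovered reads. Its PI 567690 drought libraries held 65.3, 244 and 245 FPKM, or 3332, 17395 and 20230 reads. The lowest drought library was thus 70.8 times the highest control, and the ratio of the group means was 258. In Pana the levels were 3.26, 8.20 and 29.4 FPKM under control and 15.6, 47.3 and 11.4 FPKM under drought, and these groups overlapped. Group means were 185 ± 103 FPKM in PI 567690 drought, 24.8 ± 19.6 in Pana drought, 13.6 ± 13.9 in Pana control and 0.716 ± 0.325 in PI 567690 control (SD, n = 3 each). The order by level placed PI 567690 at both ends, with no overlap with either Pana group. The gene model moved from number 30277 to 35066 by level in the PI 567690 controls to numbers 1761, 311 and 316 under drought.

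Glyma08g20250, its neighbour in the list, was far less abundant. It held 0.248, 0.385 and 0.502 FPKM in PI 567690 control and 1.05, 2.84 and 3.28 FPKM in PI 567690 drought. The drought values stood above every other library. In Pana it held 0.0189, 0.161 and 0.466 FPKM under control and 0.339, 0.764 and 0.249 FPKM under drought, and both Pana groups overlapped with PI 567690 control. These values rest on 13 to 40 reads in PI 567690 control and 53, 200 and 268 in PI 567690 drought. In Pana control library 1 the value is a single read.

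**Figure D1:**
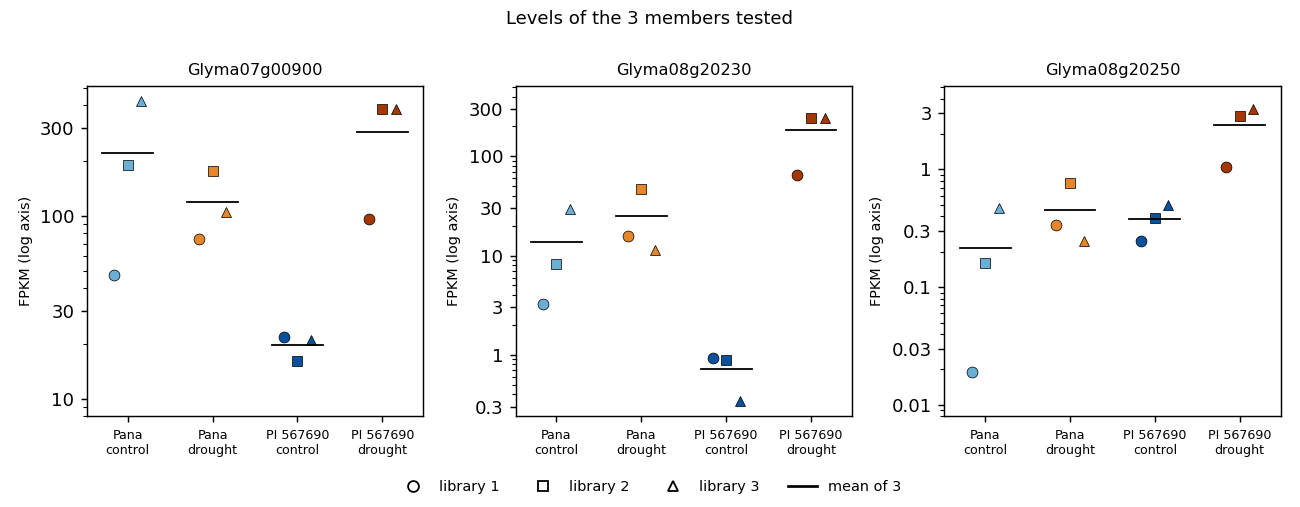
FPKM on a log axis (vertical, a separate range in each panel) of the 3 tested members in each of the 12 libraries, by group (horizontal), with markers for libraries 1 to 3 and a bar at the mean of 3. PI 567690 drought lies above PI 567690 control for each of the 3, while both Pana groups overlap. Over all tested genes 42.4% were higher without overlap in PI 567690 drought. Glyma08g20250 was tested only because of its level in PI 567690 drought, so it is not read against that share.

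In PI 567690 both abundant members rose under drought. Over all tested genes 12.3% were called in this comparison at an adjusted p under 0.05, and 6.06% were called higher, by limma on log2(FPKM + 1) with Benjamini-Hochberg adjustment over 32697 genes. Glyma08g20230 rose by 6.55 on the log2 scale (SE 0.73, adjusted p = 0.000646), the 5th rise by size and number 88 by p among the genes tested. Glyma07g00900 rose by 3.57 (SE 0.73, adjusted p = 0.0101). Glyma08g20250 also passed (log2 change 1.23, SE 0.28, adjusted p = 0.0158), but it was tested only because of its level in PI 567690 drought, so its call is a description and is not read against those shares. The median of all tested genes was 0.21 on that scale. Because 1 FPKM was added before the logarithm, the fold changes of Glyma08g20250 and of the low PI 567690 controls of Glyma08g20230 are understated.

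The call for Glyma08g20230 was kept in all 22 alternatives run, with log2 fold changes of 6.23 to 7.79 and adjusted p from 0.000124 to 0.00893. The call for Glyma07g00900 was lost without PI 567690 control library 2 (log2 change 3.44, adjusted p = 0.0535). Without PI 567690 drought library 1 the changes were 7.18 for Glyma08g20230 (adjusted p = 0.0015) and 4.23 for Glyma07g00900 (adjusted p = 0.0106). With PI 567690 drought libraries 2 and 3 averaged into 1, the changes were 6.23 for Glyma08g20230 (adjusted p = 0.00521), 3.24 for Glyma07g00900 (adjusted p = 0.0434) and 1.07 for Glyma08g20250 (adjusted p = 0.0642). Glyma08g20250 also lost its call without PI 567690 control library 1, 2 or 3 (adjusted p = 0.0721, 0.0687 and 0.0613) and on recovered reads with voom (adjusted p = 0.0521). It fell under the filter when any PI 567690 drought library was left out.

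In Pana none of the 3 tested members passed the test of drought against control. The share of all tested genes called there was 2.15%. None of the 8 members had groups without overlap in Pana, where 15.8% of tested genes were higher and 3.94% lower without overlap. The log2 change was 1.02 for Glyma08g20230 (95% interval -0.59 to 2.63, adjusted p = 0.352), -0.49 for Glyma07g00900 (-2.09 to 1.11, adjusted p = 0.662) and 0.26 for Glyma08g20250 (-0.35 to 0.86, adjusted p = 0.538), by limma. At an unadjusted p the 3 values were 0.191, 0.516 and 0.376, and the count was 0 with voom as well. The median of all genes in Pana was 0.32. Leaving out Pana control library 3, the highest for Glyma07g00900, turned its change to 0.23 (adjusted p = 0.829). Single libraries also moved Glyma08g20230, to 0.36 without Pana control library 1 (adjusted p = 0.762), 0.44 without Pana drought library 2 (adjusted p = 0.737) and 1.78 without Pana control library 3 (unadjusted p = 0.026, adjusted p = 0.09). Leaving out the Pana libraries that stood apart, control library 1 and drought library 3, gave -1.30 for Glyma07g00900 (adjusted p = 0.164) and 0.76 for Glyma08g20230 (adjusted p = 0.449).

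The test of the difference between the drought effects, PI 567690 minus Pana, called both abundant members, against 5.59% of all tested genes in either direction and 1.36% higher. The difference was 5.53 on the log2 scale for Glyma08g20230 (SE 1.04, adjusted p = 0.012) and 4.06 for Glyma07g00900 (SE 1.03, adjusted p = 0.0427), by limma. This comparison, the PI 567690 drought effect and the line difference under control share the PI 567690 control libraries. For Glyma08g20250 the difference was 0.98 (95% interval 0.12 to 1.84, adjusted p = 0.196). The call for Glyma08g20230 was lost in 1 of 21 alternatives, without PI 567690 control library 3 (log2 difference 5.36, adjusted p = 0.0512).

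The call for Glyma07g00900 in the difference was lost in 13 of 21 alternatives, with adjusted p from 0.0113 to 0.128 over all of them by limma. Over these 21 the log2 difference itself ran from 3.34 to 4.91. It was 3.93 without Pana control library 2 (adjusted p = 0.0974), 3.34 without library 3 (0.0596), 3.77 without Pana drought library 1 (0.0709) and 4.02 without library 3 (0.0674). Leaving out PI 567690 control library 1, 2 or 3 gave differences of 4.13, 3.93 and 4.11 (adjusted p = 0.0948, 0.128 and 0.117). Leaving out PI 567690 drought library 2 or 3 gave 3.73 each time (adjusted p = 0.109 and 0.11), as did averaging them (0.109). The call was kept when both Pana libraries that stood apart were left out (log2 difference 4.87, adjusted p = 0.0113), as was that of Glyma08g20230 (5.79, adjusted p = 0.00831).

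**Figure D2:**
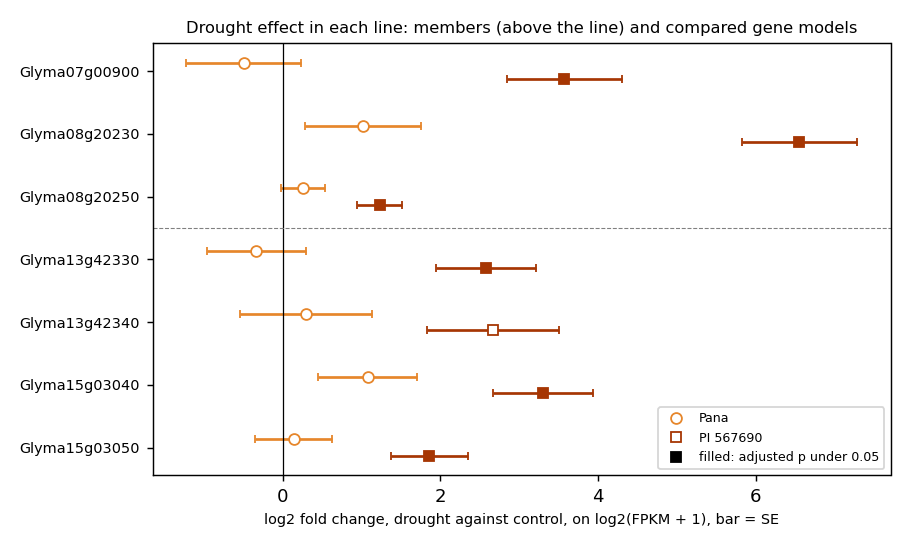
Log2 fold change of drought against control on log2(FPKM + 1) (horizontal, bars are SE) for the 3 tested members and, under the dashed line, 4 compared gene models (vertical), in Pana (circles) and PI 567690 (squares), filled where the adjusted p was under 0.05. Glyma08g20230 in PI 567690, at 6.55, lies farthest from 0, and no Pana point is filled.

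Under control conditions the abundant members were lower in PI 567690 than in Pana. The mean of Glyma08g20230 was 19.0 times higher in Pana control than in PI 567690 control, and that of Glyma07g00900 was 11.3 times higher, with no overlap between the lines for either. Without Pana control library 3 these ratios were 8.0 and 6.03, and without Pana control library 1 they were 26.2 and 15.7. The shares of all tested genes were 3.13% called lower in PI 567690 and 14.6% called in either direction, and 12.5% were lower with no overlap. The log2 differences were -2.65 for Glyma08g20230 (SE 0.73, adjusted p = 0.0328) and -2.95 for Glyma07g00900 (SE 0.73, adjusted p = 0.0195), against a median of 0.20 over all genes. Glyma08g20250 differed by 0.19 (95% interval -0.41 to 0.80, adjusted p = 0.679).

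Most libraries left out of the control groups ended these calls while the log2 differences stayed close to those with all libraries. For Glyma07g00900 the difference was -2.82 without Pana control library 2 (adjusted p = 0.0637, limma), and -3.02, -2.82 and -3.0 without PI 567690 control library 1, 2 and 3 (0.0568, 0.0843 and 0.0683). For Glyma08g20230 it was -2.75 without Pana control library 2 (0.0709), and -2.74, -2.72 and -2.48 without PI 567690 control library 1, 2 and 3 (0.0818, 0.0951 and 0.126). Pana control libraries 1 and 3 moved the size more. Without library 3 the differences were -2.23 for Glyma07g00900 (0.046) and -1.89 for Glyma08g20230 (0.0733), and without library 1 they were -3.80 (0.00422) and -3.30 (0.0164). The call for Glyma08g20230 was also lost when genes averaging under 5 FPKM were left out (0.0517).

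Under drought none of the 3 passed the line test, where 0.388% of all tested genes were called by limma, and the count with voom was 0 too. The mean of Glyma08g20230 in PI 567690 was 7.45 times that in Pana (log2 difference 2.88, unadjusted p = 0.0022, adjusted p = 0.203). That of Glyma08g20250 was 5.30 times as high (log2 difference 1.17, unadjusted p = 0.00132, adjusted p = 0.153). For Glyma08g20230, all 3 PI 567690 libraries lay above all 3 Pana libraries, as did 10.7% of tested genes. Those of Glyma08g20250 did so too, but it was tested only because of its level in PI 567690 drought. Its separation here is thus a description and is not read against that share. For Glyma08g20230 the log2 difference was 2.48 without Pana drought library 3 (adjusted p = 0.298) and 2.57 with PI 567690 drought libraries 2 and 3 averaged (adjusted p = 0.75). Glyma07g00900 overlapped between the lines (ratio of means 2.42, adjusted p = 0.953).

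The abundant members did not keep a fixed ratio. Glyma08g20230 amounted to 6.87%, 4.37% and 6.93% of the FPKM of Glyma07g00900 in the 3 Pana controls and to 4.28%, 5.48% and 1.63% in the PI 567690 controls. Under drought it amounted to 21.1%, 27.0% and 10.8% in Pana and to 68.3%, 63.9% and 64.1% in PI 567690. Drought libraries lay above control libraries in both lines, Pana drought library 3 included. In Pana the group means were 6.05% ± 1.46 under control and 19.6% ± 8.17 under drought, and in PI 567690 they were 3.80% ± 1.97 and 65.4% ± 2.51 (SD, n = 3 each). This ratio was computed after the levels were known and carries no test.

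**Figure D3:**
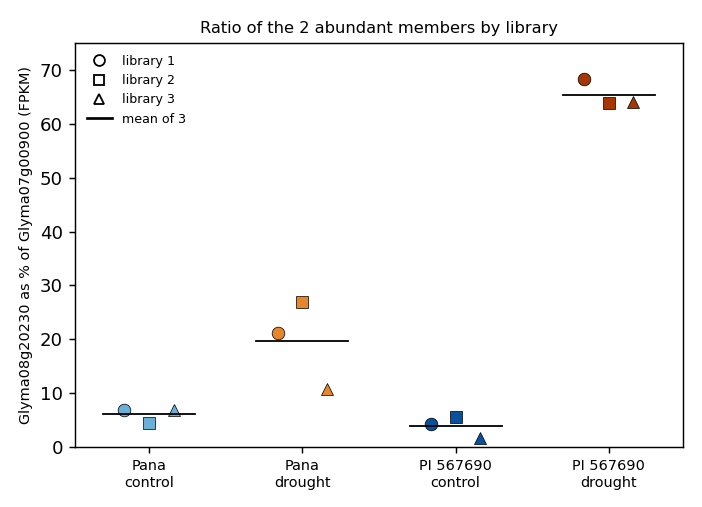
Glyma08g20230 as a percentage of Glyma07g00900, both in FPKM (vertical), in each library by group (horizontal), with a bar at the mean of 3. The PI 567690 drought libraries lie between 63.9% and 68.3%, and the Pana drought libraries between 10.8% and 27.0%.

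The summed level of the 8 members followed the abundant ones. It was 23.0, 17.6 and 21.9 FPKM in the PI 567690 controls and 162, 629.6 and 630.4 FPKM in PI 567690 drought. In Pana it was 52.5, 197 and 455 FPKM under control and 90.6, 224 and 117 FPKM under drought, and these ranges overlapped.

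The other 5 members were low, with at most 92 reads in a library, and none was tested. Glyma08g20190 held 1.65 FPKM, or 92 reads, in Pana control library 1, and 0.0547 to 0.453 FPKM in the other 11. Its mean was 8.73 times higher in Pana control than in PI 567690 control, with no overlap, as for 12.5% of tested genes. Without Pana control library 1, which stood apart, the ratio was 3.51. The gap between the groups was narrow: 0.152 FPKM (11 reads) in Pana control library 2 against 0.144 FPKM (8 reads) in PI 567690 control library 1. Glyma08g20220 ran from 0 to 0.177 FPKM, with 1, 1 and 2 reads in the PI 567690 controls and 3, 11 and 12 in PI 567690 drought. Glyma08g20200 ran from 0 to 0.187 FPKM, with 1, 3 and 0 reads in the PI 567690 controls and 4, 8 and 9 under drought. For both, PI 567690 drought lay above PI 567690 control without overlap, as did 42.4% of tested genes. Glyma08g20210 ran from 0.0256 to 0.325 FPKM and overlapped between water regimes in both lines.

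Glyma07g00920, the companion of Glyma07g00900 on chromosome 7, had at most 5 reads in a library and reached 0.153 FPKM. It was listed at 0 in 4 libraries, where the limit that 3 reads allow was 0.0623 to 0.129 FPKM. In a fit without the filter on low values, none of the 5 passed in any comparison. There Glyma08g20190 differed by -0.60 on the log2 scale between the lines under control (unadjusted p = 0.0285, adjusted p = 0.133, limma). Glyma08g20220 changed by 0.13 under drought in PI 567690 (unadjusted p = 0.0402, adjusted p = 0.165, limma).

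**Figure D4:**
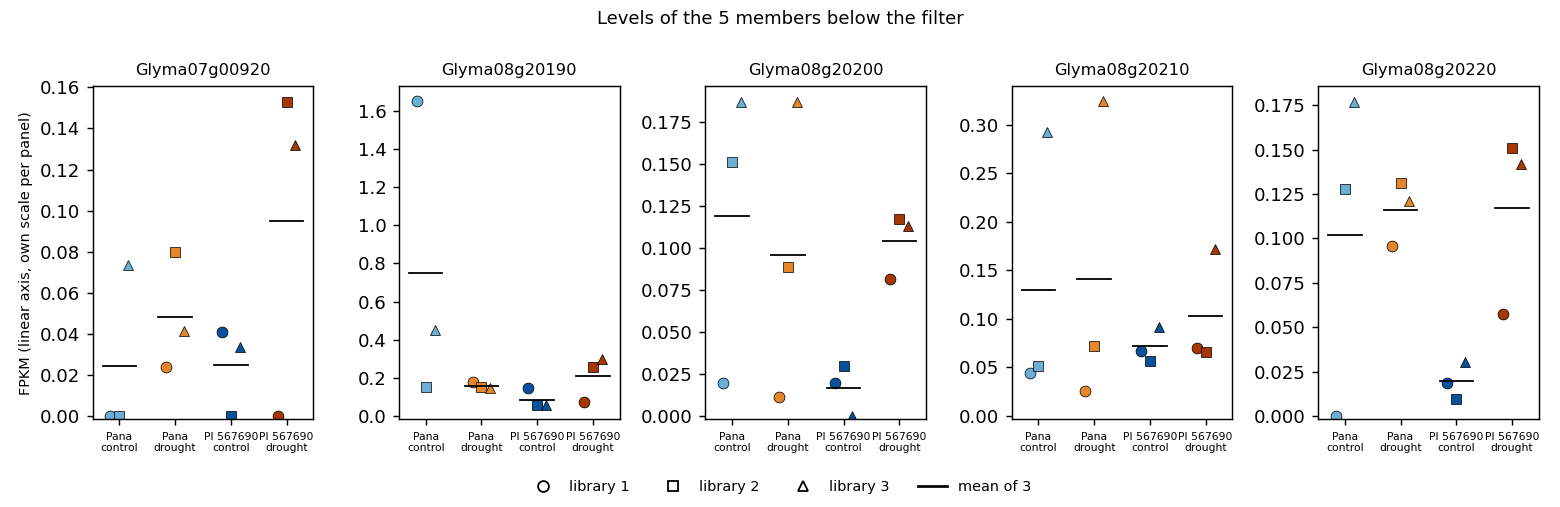
FPKM (vertical, a linear scale of its own in each panel) of the 5 untested members in each of the 12 libraries by group (horizontal), with a bar at the mean of 3. Glyma08g20190 in Pana control library 1, at 1.65 FPKM, is the single value above 0.5 FPKM.

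Members of tandem clusters can be alike enough in sequence for reads to fall on several of them, and how the authors' software treated such reads is not stated. The values of each of the 8 members were whole multiples of 1 step per library, within 0.06 reads plus 1 part in 100000. No such step was found for Glyma13g42330, Glyma15g03040 and Glyma15g03050, used for comparison below. The recovered reads are the smallest whole numbers that give the values. Adding the members of chromosome 8 together raised the PI 567690 control mean from 0.716 FPKM for Glyma08g20230 alone to 1.29 FPKM, and the PI 567690 drought mean from 185 to 188 FPKM.

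Drought calls were not found among the gene models around the clusters. Of the 40 gene models listed next to the clusters, 10 on each side, 29 were tested and 0 were called for drought in either line, for the difference or for the line under drought by limma. Over all tested genes the shares called were 2.15% for drought in Pana, 12.3% in PI 567690, 5.59% for the difference and 0.388% for the line under drought. Among 29 genes, 0 calls lie near the smaller of these shares, so the count is not read as a trait of the region. At an unadjusted p under 0.05 there were 6 for drought in Pana, 4 for drought in PI 567690, 1 for the difference and 1 for the line under drought. With voom, which had reads for 14 of the 29, those counts of calls were 0 too. Their log2 changes in PI 567690 ran from -1.0 for Glyma08g20111 to 0.94. Under control 3 of the 29 were called higher in PI 567690, close to the share of 11.4% over all tested genes. They were Glyma07g00800 (0.93), Glyma07g00980 (1.00) and Glyma08g20341 (0.58), the direction opposite to Glyma07g00900 and Glyma08g20230.

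A list of 8 gene models on chromosomes 13 and 15 was set beside the clusters. The table held 7, of which 4 were tested, and no name or role is given to them here. In PI 567690 under drought 3 of the 4 rose by limma, where 6.06% of all tested genes were called higher. These were Glyma15g03040 by 3.30 (adjusted p = 0.00697), Glyma13g42330 by 2.58 (0.0228) and Glyma15g03050 by 1.86 (0.0309). Glyma13g42340 changed by 2.67 (0.0585). Under control Glyma13g42330 was lower in PI 567690 by the test (log2 difference -2.62, adjusted p = 0.0164), and the other 3 had -1.96, -1.55 and -1.34 (adjusted p = 0.143, 0.125 and 0.0923), the same sign as the abundant members. Their difference of drought effects ran from 1.72 to 2.91. None was called in the fit reported, and 3 of the 4 had an unadjusted p under 0.05. The count of calls for the difference changed in 3 of 21 alternatives and ran from 0 to 3 over all of them. The log2 change of Glyma08g20230 in PI 567690, 6.55, was above all 4. The 3 calls for drought in PI 567690 ran from 0 to 4 over 22 alternatives. They became 1 with PI 567690 drought libraries 2 and 3 averaged. They became 4 with the replicate block and without Pana control library 1 or 3. Whole reads were recovered for 1 of the 4, Glyma13g42340, which voom did not call.

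The closest profiles among tested non-members, by root mean square difference of centred log2(FPKM + 1) over 12 libraries, came from this list for Glyma07g00900. They were Glyma13g42340 at 0.518 and Glyma13g42330 at 0.551, against a range of 4.63 for Glyma07g00900 itself. For Glyma08g20230, with a range of 7.52, they were Glyma07g03920 at 0.814 and Glyma09g28310 at 0.898. For Glyma08g20250, with a range of 2.07, they were Glyma18g17970 at 0.194 and Glyma07g07320 at 0.2. The abundant members differed from each other by 1.34.

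**Figure D5:**
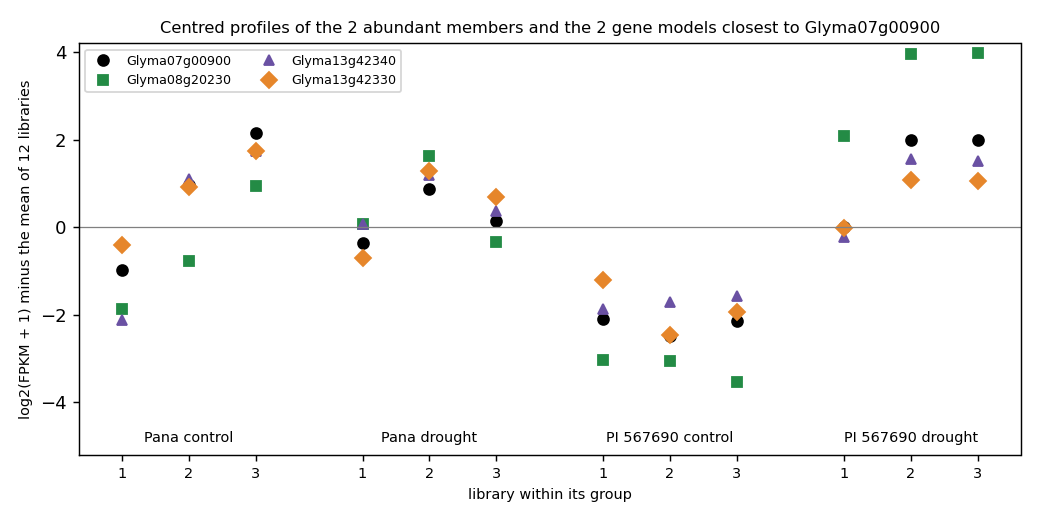
Log2(FPKM + 1) minus its mean over 12 libraries (vertical) for Glyma07g00900, Glyma08g20230, Glyma13g42340 and Glyma13g42330 in each library by group (horizontal). In the PI 567690 drought libraries Glyma08g20230 stands above the other 3, and in the PI 567690 controls it stands below them.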

How the data were processed

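Leaf RNA-seq of 4 groups of 3 libraries was analysed from 1 table of 54175 gene models. The values were taken as FPKM computed by the authors; the deposited table does not name the unit, which was read from its values. FastQC, TopHat 1.4.1, Cufflinks and Cuffdiff are named in the submitters' processing notes without role or order, and the design text also names BWA followed by ANOVA. The genome build is not given in the sources used here, nor is the annotation. FPKM is relative, so abundant genes that take more reads lower the others.

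Members and lists were chosen with earlier results of these data known. The 32697 genes that reached 1 FPKM in 3 or more libraries were fitted with limma 3.58.1 (R 4.3.3) on log2(FPKM + 1) with a mean-variance trend, 1 coefficient per group and all 12 libraries, two-sided, with Benjamini-Hochberg adjustment at 0.05. The residual degrees of freedom were 8 and the prior 3.42. Relative depth and reads were recovered from the steps between low values: 30934 of 41770 gene models (74.1%) came out whole. Intervals cover the spread between libraries, and the 3-read limit covers counting error only. Summaries used Python 3.11.15, numpy 2.4.6 and pandas 2.3.3. The fit was tested on simulated data. Members are all named; the closest profiles were the 2 smallest root mean square differences. Alternatives covered filters, pseudocount, scaling, the replicate block, single lines, left-out libraries and PI 567690 drought libraries 2 and 3 averaged. Added after seeing the data were voom on recovered reads and that averaging combined with leaving out both Pana libraries that stood apart. None (0 of 54175) of the identifiers matched the 59048 genes of the RefSeq table of assembly Glycine_max_v4.0, so no sequence is printed. That table names 10 lipoxygenase genes, 3 on chromosome 7, 1 on chromosome 8, 4 on chromosome 13 and 2 on chromosome 15, which nothing pairs with these identifiers.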

Additional observations from a re-analysis of the deposited data

Results flagged for a closer look

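Drought effects differed between the lines for 2 members, by limma's test of the difference itself (PI 567690 minus Pana). For Glyma08g20230 the difference was 5.53 on the log2 scale (SE 1.04, adjusted p = 0.012), with all 3 PI 567690 drought libraries above all 3 PI 567690 controls, as for 42.4% of tested genes, and overlap in Pana. For Glyma07g00900 it was 4.06 (SE 1.03, adjusted p = 0.0427), and the call was lost in 13 of 21 alternatives.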

How the results depend on the processing

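Among the 3 tested members, leaving out 1 library at a time gave 1 to 3 calls for drought in PI 567690 (3 with all libraries), 0 to 2 for the difference (2) and 0 to 2 for the line under control (2). Over all tested genes the shares called with all libraries were 12.3%, 5.59% and 14.6%. Glyma08g20250, tested only because of its level in PI 567690 drought, is among the 3 calls. Without any 1 of the PI 567690 drought libraries it was not tested, which left 2 members. The counts for drought in Pana and for the line under drought were 0 in each of the 22 alternatives run. The difference had 1 call without the filter, with genes averaging under 5 FPKM left out, with PI 567690 drought libraries 2 and 3 averaged, and with voom on recovered reads. The line difference under control had 1 call with genes averaging under 5 FPKM left out. The direction turned once, for Glyma07g00900 in Pana, whose change ran from -1.34 to 0.23, the latter without Pana control library 3. The causes were not tested. The replicate block left the member counts at 0 for drought in Pana, 3 for drought in PI 567690, 2 for the difference, 2 for the line under control and 0 for the line under drought. Deviations of same-numbered libraries correlated above 0.1 in 5 of 18 pairs (-0.11 to 0.66), with 0.66 and 0.61 for numbers 1 and 3 of the drought groups. A library correlated best with its own number in 19 of 36 combinations. Each combination was a choice among 3 libraries, so a random pick would give fewer on average. The combinations are not independent, because each pair of groups was counted in both directions, and the excess was not tested. Whether same-numbered libraries share a batch was not tested. Not every pair passed 0.1 and the labels give no pairing, so the block was not used in the values reported. Over all genes the calls for drought in Pana ran from 0 to 10154 (704 in the fit reported), in PI 567690 from 1113 to 14731 (4023), for the difference from 405 to 2957 (1829), for the line under control from 1400 to 7038 (4762) and for the line under drought from 24 to 425 (127). Scaling the libraries moved the share of higher calls from 69.5% to 51.4% in Pana and from 49.2% to 32.5% in PI 567690, and the all-gene medians from 0.32 to 0.10 and from 0.21 to -0.03. Member changes in PI 567690 became 6.31, 3.27 and 1.08. Depth limits the 5 untested members, which had few reads in most libraries.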
